A study of Homo sapiens with 5 samples.

Results

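MicroRNA genes encode short RNAs that lower the output of messenger RNAs. A long primary transcript folds into hairpins, which Drosha and DGCR8 cut out in the nucleus, exportin-5 carries to the cytoplasm, and Dicer trims to a mature microRNA that is loaded into an Argonaute protein. The seed, bases 2 to 8 of the mature strand, does most of the target recognition, and several microRNAs are often cut from 1 primary transcript of a genomic cluster. In blood cells, miR-223 is a hallmark of myeloid cells, miR-142 is shared by blood lineages, and the miR-15/16 and let-7 families are known for holding back cell division.

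The 173 microRNA genes described here were measured among 18417 genes in the human acute leukemia line RS4;11, whose MLL gene is rearranged. Each has a probe whose platform annotation names 1 gene symbol, made of MIR and a number or of MIRLET7, and host transcripts with symbols ending in HG were left out. Every one of them had 1 such probe. Another 32 probes, which name a microRNA gene together with another gene, stayed outside the 173. Control cells, on 2 arrays, received the solvent DMSO, and treated cells, on 3 arrays, received 10 uM SB216763, which inhibits the kinase GSK-3, in both cases for 20 h. All 5 arrays hold RNA of this 1 cell line, and nothing in the labels says whether each came from its own culture; p-values therefore measure the spread between arrays, possibly a technical one.

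The arrays are whole-transcript arrays of total RNA. Labelling of this kind copies long RNA, so a probe over a hairpin is taken here to read the long primary transcript, and mature microRNAs were not measured. Whether the short precursor hairpins add to the signal was not checked. Probe sequences were not used here, so whether a probe covers the hairpin alone, or other parts of the transcript around it, was not checked. Values are log2 expression values, differences are SB216763 minus control on that scale, and a gene is described as called where limma's moderated test gave a Benjamini-Hochberg adjusted p under 0.05 over all 18417 genes (n = 2 control, n = 3 SB216763). Array medians lay between 6.77 and 6.84, and background, the 95th percentile of 341 olfactory receptor genes on each array, between 5.98 and 6.19. Pearson r over probes was 0.994 between the control arrays, 0.992 to 0.996 among the SB216763 arrays, and 0.989 to 0.991 across the groups. Of 9 measured B cell precursor markers, CD79B and PAX5 were above background on all 5 arrays, while CD22, VPREB1, DNTT, RAG1, RAG2 and CD24 were above it on no array. All 5 measured myeloid markers (MPO, CD14, ELANE, CSF1R and CEBPE) were above it on every array, as was 1 of 6 T cell markers (CD8A) and as were 2 of 4 erythroid markers (EPOR and KLF1). None of these markers was called by limma, and none had an unadjusted p under 0.05.

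The 11 called microRNA genes are shown first by sequence, since their mature strands show which target families they belong to. The sequences below are from RefSeq (GRCh38.p14), 5′ to 3′, with the seed in capitals. The strands of genes that fell with SB216763 come first, each with that of a cluster partner where its seed is the same.
hsa-miR-221-3p: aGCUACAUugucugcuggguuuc
hsa-miR-222-3p: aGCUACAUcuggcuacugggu
hsa-miR-223-3p: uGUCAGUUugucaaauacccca
hsa-miR-142-3p: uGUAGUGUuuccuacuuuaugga
hsa-miR-21-5p: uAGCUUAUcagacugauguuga
hsa-miR-504-5p: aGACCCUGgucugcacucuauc
hsa-miR-106b-5p: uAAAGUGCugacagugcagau
hsa-miR-93-5p: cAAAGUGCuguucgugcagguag
hsa-miR-196a-5p: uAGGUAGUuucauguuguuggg

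The strands of genes that rose follow, again with a partner of the same cluster and seed for miR-15a and let-7f. Not shown are miR-181b-5p of MIR181B2 and let-7a-5p of MIRLET7A1, which share cluster and seed with miR-181a-5p and let-7f-5p.
hsa-miR-15a-5p: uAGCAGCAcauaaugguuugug
hsa-miR-16-5p: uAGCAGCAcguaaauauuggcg
hsa-let-7f-5p: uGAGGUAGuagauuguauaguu
hsa-let-7d-5p: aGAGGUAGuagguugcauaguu
hsa-miR-181a-5p: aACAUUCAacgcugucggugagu
hsa-miR-148b-3p: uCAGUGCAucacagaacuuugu

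These strands are cut from longer hairpins. The RefSeq hairpins of the genes with the largest decreases, and of the pair MIR15A and MIR106B that is set against host genes below, are shown with the mature strands in capitals. MIR223 is on the plus strand and the other 3 on the minus strand of their chromosomes.
MIR221: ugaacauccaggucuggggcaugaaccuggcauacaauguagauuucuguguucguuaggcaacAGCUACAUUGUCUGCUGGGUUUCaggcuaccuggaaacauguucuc
MIR223: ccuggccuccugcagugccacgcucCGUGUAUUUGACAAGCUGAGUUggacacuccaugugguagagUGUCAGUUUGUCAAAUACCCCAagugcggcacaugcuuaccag
MIR15A: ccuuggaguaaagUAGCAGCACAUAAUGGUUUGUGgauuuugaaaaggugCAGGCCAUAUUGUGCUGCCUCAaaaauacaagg
MIR106B: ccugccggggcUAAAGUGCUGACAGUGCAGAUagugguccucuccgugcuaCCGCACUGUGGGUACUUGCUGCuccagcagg

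Most microRNA genes gave no signal above background: 118 of the 173 were above it on no array, 10 on 1 to 4 arrays and 45 on all 5. That is 26.0% on all 5 arrays, against 65.5% of all genes. Of the 173, limma called 4 higher and 7 lower, or 6.36%, against 13.1% of all genes tested (7.21% higher and 5.92% lower). Among the 45 genes above background on every array, 1 was called higher and 6 lower, against 18.2% of all genes of that kind. The median difference of the 173 was -0.02, beside 0.00 over all genes. Of the 173, 28 had an unadjusted p under 0.05 in limma's test, beside 4880 of all 18417 genes. The values of the 2 groups did not overlap for 53 microRNA genes, 30.6%, against 41.4% of all genes. Among genes above background on all arrays it was 37.8% of microRNA genes and 51.3% of all genes, and among those above it on no array 26.3% and 20.5%. With each array centred on its own median, the calls were split 2 higher and 12 lower. Of all genes 1048 were then called higher and 1536 lower, with a median difference of -0.05. Every one of the 11 calls was lost without either control array: without control replicate 1 there were 0 calls and 19 unadjusted p-values under 0.05 among the 173, and without control replicate 2 there were 0 and 27. This loss was general: of all 18417 genes, 1 was called without control replicate 1 and 0 without control replicate 2, with 3603 and 3960 unadjusted p-values under 0.05. Without SB216763 replicate 1, MIR221 and MIR223 were called and no other microRNA gene, or 1.16%, beside 5.39% of all genes.

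MIR221 showed the largest difference of the 173. Its product is known to repress the cell cycle inhibitor p27 and the receptor KIT. The probe read 7.67 and 7.78 on the control arrays and 6.17, 6.34 and 6.30 on the SB216763 arrays. Both control values lie far above all 3 treated ones, and the treated values sit just above background. The decrease was 2.73-fold (log2 difference -1.45, SE 0.09, limma's adjusted p = 0.00043). Without control replicate 1 or control replicate 2 the adjusted p of MIR221 rose to at most 0.0572, with differences between -1.51 and -1.39 over all arrays left out in turn.

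MIR223, the myeloid microRNA gene, was the other large decrease. It read 8.004 and 8.130 in control cells and 7.17, 7.36 and 7.19 with SB216763. The groups do not overlap, and all 5 values are well above background. The decrease was 1.78-fold (log2 difference -0.83, SE 0.09, limma's adjusted p = 0.00211). Without a control array its adjusted p reached at most 0.0706. All 5 measured myeloid markers stayed uncalled, with MPO at -0.23 (limma's adjusted p = 0.222) and CSF1R at 0.11 (0.456). MPO read 6.16, 6.37 and 6.10 with SB216763, and CD14 read 6.30, 6.59 and 6.14. These values lie close to background, so a decrease of MPO or CD14 could hardly be seen. The summed log2 level of the 5 markers ranged from 36.5 to 36.6 in control and from 36.0 to 37.1 in treated cells. Their part in the MIR223 value was not tested. In bulk RNA, fewer cells of a type and less RNA per cell cannot be told apart.

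Another 2 decreases came from chromosome 17. MIR142, the blood cell microRNA gene, read 6.98 and 7.02 in control cells and 6.56, 6.20 and 6.57 with SB216763, a 1.47-fold decrease (log2 difference -0.56, SE 0.12, limma's adjusted p = 0.0252). MIR21, a microRNA gene raised in many cancers, read 7.61 and 7.41 against 7.14, 6.84 and 7.14, a 1.38-fold decrease (-0.47, SE 0.12, limma's adjusted p = 0.0397). For both genes the groups do not overlap and SB216763 replicate 2 is the lowest array. MIR142 kept its call without SB216763 replicate 2 or 3, with a lowest adjusted p of 0.0158, and lost it without each of the other arrays, up to 0.205. MIR21 kept it only without SB216763 replicate 2, at 0.046, and reached 0.299.

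Another 3 decreases, smaller ones, completed the group. MIR504, whose product is reported to repress the tumor suppressor p53, read 7.28 and 7.33 in control cells and 6.82, 6.93 and 6.98 with SB216763, a 1.31-fold decrease (log2 difference -0.39, SE 0.08, limma's adjusted p = 0.0219). MIR106B, which lies in an intron of the replication helicase gene MCM7, read 7.04 and 7.02 against 6.70, 6.71 and 6.55, a 1.30-fold decrease (-0.38, SE 0.08, limma's adjusted p = 0.0250). The control values of these 2 genes lie close together, and every treated value is below them. MIR196A1, a microRNA gene of the HOXB cluster, read 5.98 and 6.12 against 5.73, 5.69 and 5.63 (-0.37, SE 0.08, limma's adjusted p = 0.0269). All 5 of its values are below background, so no fold is given. The call of MIR504 was lost without SB216763 replicate 1 or either control array, up to an adjusted p of 0.151. MIR106B and MIR196A1 kept theirs only without SB216763 replicate 2, with adjusted p-values up to 0.166 and 0.160.

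MIR15A was the only microRNA gene above background on every array that was called higher. Its product, which with miR-16 is known to repress BCL2, comes from the region of chromosome 13 often lost in chronic lymphocytic leukemia. MIR15A read 7.79 and 7.89 in control cells and 8.23, 8.26 and 8.43 with SB216763. All 3 treated values exceed both control values. The increase was 1.38-fold (log2 difference 0.47, SE 0.09, limma's adjusted p = 0.0165). The call was lost without SB216763 replicate 1 or either control array, up to an adjusted p of 0.165.

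MIRLET7F1 showed the largest increase. It belongs to the let-7 family, whose known targets include RAS genes, MYC and HMGA2. It read 6.04 and 6.30 in control cells and 6.69, 6.67 and 6.66 with SB216763, a 1.42-fold increase (log2 difference 0.50, SE 0.10, limma's adjusted p = 0.0143). The treated values lie close together, and 1 of the 2 control arrays is below background. Its adjusted p reached 0.112 where an array was left out, and the call was lost without SB216763 replicate 1 or either control array.

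The other 2 increases concern dim probes. MIR148B, of a family known to repress the DNA methyltransferase DNMT1, read 5.90 and 5.79 in control cells, both below background, and 6.24, 6.34 and 6.09 with SB216763. The increase was at least 1.03-fold over background (fitted log2 difference 0.38, SE 0.10, limma's adjusted p = 0.0417). MIR181A2, from a family active in lymphocyte development, read 5.31 and 5.64 against 5.997, 5.85 and 5.87 (0.43, SE 0.11, limma's adjusted p = 0.0445). None of its values was above background, so no fold is given. Neither was called with the arrays centred on their medians. MIR148B kept its call only without SB216763 replicate 3 (adjusted p up to 0.239 otherwise), and MIR181A2 lost it whichever array was left out (0.0627 to 0.255).

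**Figure D1:**
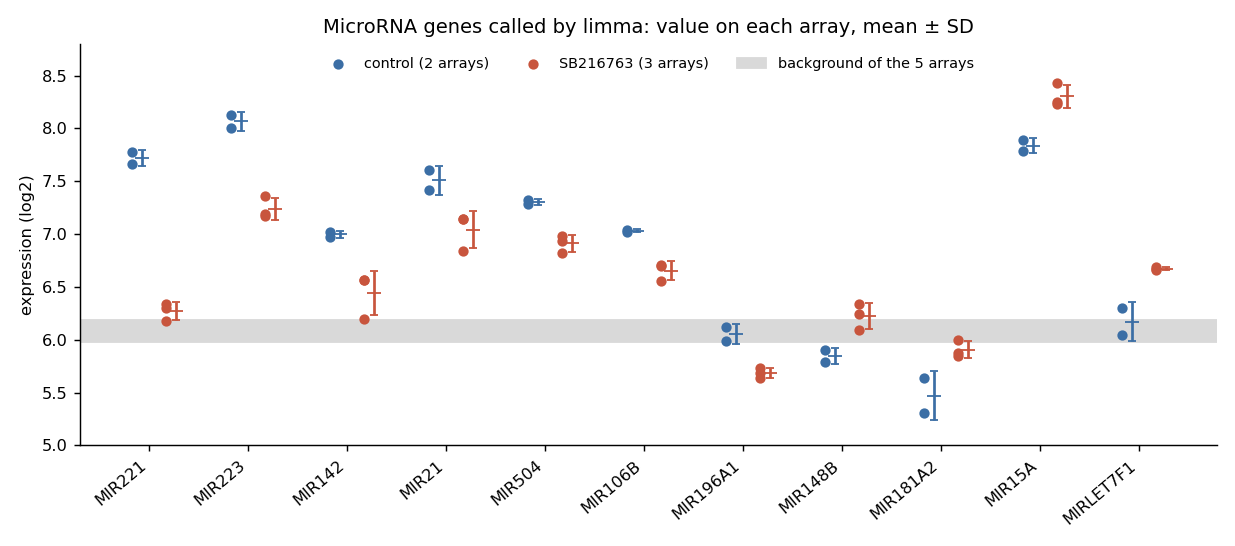
Expression (log2, vertical axis) of the 11 called microRNA genes on each array, with blue points for the 2 control arrays, red points for the 3 SB216763 arrays and bars for mean ± SD; the grey band spans the background of the 5 arrays. The groups do not overlap for any of the 11, and MIR196A1 and MIR181A2 lie at or under the band.

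**Figure D2:**
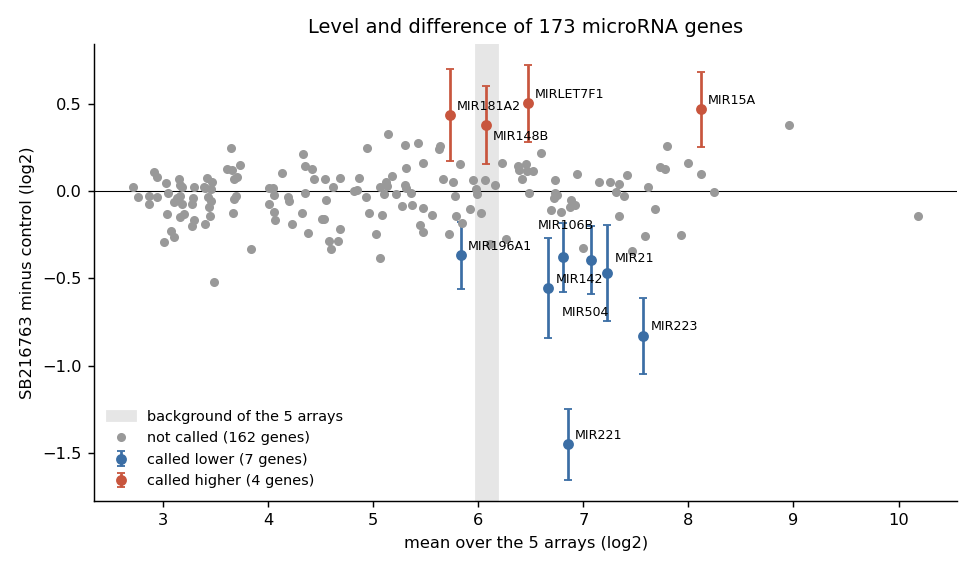
Mean log2 value over the 5 arrays (horizontal axis) and SB216763 minus control difference (log2, vertical axis) of the 173 microRNA genes; bars are 95% intervals of the called genes and the grey band is the background. MIR221 and MIR223 stand below all others, and the 118 genes above background on no array lie mostly left of the band.

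In the genomic clusters, no more than 1 member was called. Neighbours at most 10 kb apart on 1 strand formed 30 clusters that together hold 77 of the 173 genes. Of these clusters 5 held a called member and 0 held more than 1, while 18 had no member above background on all arrays. The count of clusters with more than 1 call depends on the processing: MIR25 was called beside MIR106B with dim genes left out (adjusted p = 0.0499) and with quantile normalization (0.0467), and MIR93 beside MIR106B with the arrays centred. A cluster is usually copied as 1 primary transcript, yet its genes are read by different probes, so their levels are not comparable and only their differences are set side by side.

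In the cluster of MIR222 and MIR221 on the X chromosome, the MIR222 probe read 4.83 and 4.76 in control cells and 4.66, 4.38 and 4.34 with SB216763. All of these are below background. Its difference of -0.33 has the sign of the MIR221 difference but was not called (limma's adjusted p = 0.0943). In the cluster of MIR106B, MIR93 and MIR25 on chromosome 7, the 3 differences were alike in sign and size: -0.38 for MIR106B, -0.27 for MIR93 (limma's adjusted p = 0.0910) and -0.25 for MIR25 (0.0861). MIR93 read 6.49 and 6.37 against 6.06, 6.22 and 6.20, and MIR25 read 8.15 and 8.02 against 7.85, 7.79 and 7.85. Every treated value of both genes is below both control values. Their 95% intervals, -0.48 to -0.06 and -0.44 to -0.06, overlap that of MIR106B, -0.58 to -0.18.

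The cluster of MIR15A and MIR16-1 gave unlike values. The MIR16-1 probe, below background on every array, differed by -0.03 (95% interval -0.22 to 0.15). The second locus of this family, MIR15B and MIR16-2 on chromosome 3, was below background on every array too. MIR15B differed by -0.38 (limma's adjusted p = 0.186) and MIR16-2 by -0.12 (0.448). The MIR15B value was -0.16 without control replicate 1 and -0.61 without control replicate 2, called in neither case. Over the 5 genes with the seed AGCAGCA, which adds MIR195, differences ran from -0.38 to 0.47, and MIR15A was the 1 called.

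The cluster of MIRLET7A1, MIRLET7F1 and MIRLET7D on chromosome 9 also held values of both signs. MIRLET7D, above background on every array, read 7.71 and 7.78 in control cells and 7.30, 7.36 and 7.80 with SB216763. Of the treated arrays 2 are below the controls and SB216763 replicate 3 is above them, and the difference of -0.26 was not called (limma's adjusted p = 0.333). Without SB216763 replicate 3 the difference of MIRLET7D was -0.42 and was called (0.0405), and without SB216763 replicate 1 it was -0.16. MIRLET7A1, below background, differed by -0.10. Across the 10 genes with the seed GAGGUAG, the let-7 family with MIR98, 1 was called higher and 0 lower, 2 were above background on all arrays and the median difference was -0.07. The second bright one, MIRLET7I, differed by -0.04, and the dim MIRLET7A2, MIRLET7C, MIRLET7E, MIRLET7F2 and MIRLET7G lay between -0.24 and 0.08.

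The miR-181 genes were alike in sign. MIR181A2 and its partner MIR181B2 on chromosome 9 differed by 0.43 and 0.33 (limma's adjusted p = 0.0806 for MIR181B2), both from probes below background. The pair on chromosome 1 differed by 0.12 for MIR181A1 and 0.16 for MIR181B1 (limma's adjusted p = 0.356), the latter above background on all arrays. With MIR181C, the 5 genes of the seed ACAUUCA ranged from 0.05 to 0.43. On chromosome 19, MIR23A, MIR27A and MIR24-2 differed by 0.07, -0.01 and 0.11 and none was called. MIR425 and MIR191 on chromosome 3, both bright, differed by -0.32 (limma's adjusted p = 0.0756) and 0.09. MIR425 was called with dim genes left out (0.0411), with quantile normalization (0.0457) and with centring (0.0461). The clusters on chromosome 14, which belong to an imprinted region, held 16 members, of which 3 were above background on all arrays and 0 were called, with differences from -0.34 to 0.25. The lowest of these was MIR134, at -0.34 (limma's adjusted p = 0.109).

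**Figure D3:**
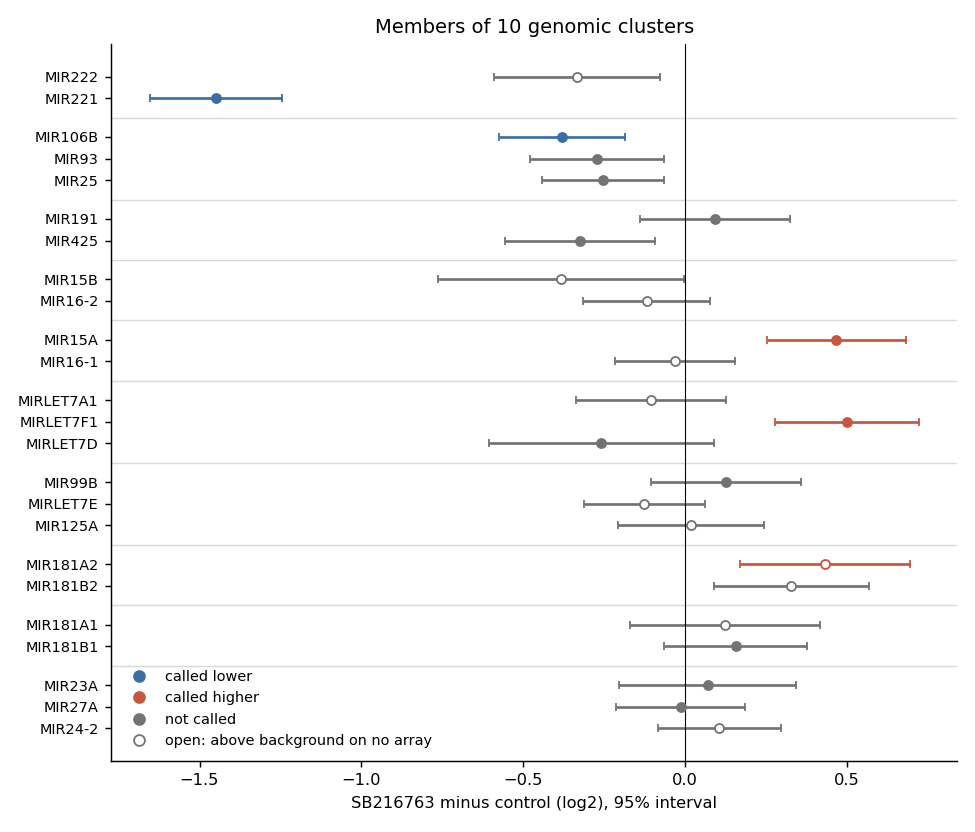
SB216763 minus control difference (log2, horizontal axis, bars are 95% intervals) of each member of 10 genomic clusters, grouped by grey lines; blue is called lower, red called higher, grey not called, and open points were above background on no array. No cluster holds 2 coloured points, and the members of the clusters of MIR221, MIR106B and MIR181A2 lie on the same side of 0 as the called one.

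By chromosome, the calls fell as follows. On the X chromosome 3 of 11 microRNA genes were called lower (MIR221, MIR223 and MIR504), and 5.04% of all genes on the X chromosome were. On chromosome 17 it was 3 of 13 (MIR142, MIR21 and MIR196A1), beside 6.28% of its genes. These counts are small and were not tested. The X-linked relative of the miR-17 cluster, MIR106A with MIR19B2 and MIR92A2, was below background on every array, with differences from -0.23 to -0.09. The microRNA genes inside the HOX clusters were also below background throughout: MIR10A differed by -0.14, MIR10B by -0.29 and MIR196A2 by -0.29, none called, beside -0.37 for MIR196A1. MIR10B was called lower with the arrays centred.

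Several microRNA genes known from blood cells were dim or not called. MIR150, which is high in mature lymphocytes, was above background on all arrays and differed by -0.12 (95% interval -0.50 to 0.26). MIR146A, MIR126, MIR128-1 and MIR128-2 were above background on no array, as were MIR9-1 and MIR9-3. The brightest probes of the 173 were those of MIR326, MIR339, MIR320A, MIR139 and MIR15A. Of these, MIR339 read 8.59 and 8.87 in control cells and 9.06, 9.28 and 8.99 with SB216763. Its groups do not overlap, and the difference of 0.38 was not called (limma's adjusted p = 0.0859). It was called with dim genes left out (0.0469) and with a variance trend and robust settings (0.0421). Other uncalled positive differences, of genes above background on all arrays of a group, were 0.26 for MIR149 (limma's adjusted p = 0.0908), 0.22 for MIR107 (0.138), 0.16 for MIR30E and 0.16 for MIR210, a microRNA gene induced by hypoxia.

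Many microRNA genes lie within other genes, and 65 of the 173 had a measured host, by RefSeq or by a list of known hosts. The 55 hosts include 3 called higher and 3 called lower, or 10.9%, beside 13.1% of all genes and 18.2% of those above background on all arrays, and 42 were above background on all arrays. In 8 pairs the host was called, and the member's difference had the host's sign in 7. These pairs are not separate, as 3 of them share the host MCM7. The other 5 have members that were not above background on all arrays, with differences between -0.19 and 0.07. In 1 pair both were called. All 6 host calls were lost without either control array.

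That pair is MIR106B and MCM7. MCM7, a subunit of the replication helicase, read 11.33 and 11.55 in control cells and 10.33, 10.31 and 10.35 with SB216763. The decrease was 2.16-fold (log2 difference -1.11, SE 0.09, limma's adjusted p = 0.00067). The 95% interval of MCM7, -1.32 to -0.90, does not overlap that of MIR106B, -0.58 to -0.18, nor those of MIR93 and MIR25. MIR106B, at 6.55 to 7.04, and MIR93, at 6.06 to 6.49, read much closer to background than MCM7, and MIR25 read 7.79 to 8.15. The part of background in their smaller differences was not tested. The difference between the changes of host and microRNA gene was not tested here or for the pairs that follow.

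MIR15A and its host DLEU2 had differences of opposite sign. DLEU2, a long non-coding transcript, read 10.46 and 10.31 in control cells and 10.11, 9.73 and 10.12 with SB216763. All treated values are below both controls, and the difference of -0.40 was not called (limma's adjusted p = 0.0960). Its 95% interval, -0.71 to -0.09, lies below 0, and that of MIR15A, 0.25 to 0.68, above it. MIR21 fell while VMP1, the autophagy gene whose end it overlaps, differed by 0.07 (95% interval -0.15 to 0.29). FGF13, which spans MIR504, was below background on every array and differed by -0.02. COPZ1, a coatomer subunit gene around MIR148B, differed by 0.07. SMC4, the condensin gene around MIR15B and MIR16-2, differed by -0.24 (limma's adjusted p = 0.330).

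The other 5 called hosts held microRNA genes that were not called. The probes of MIR128-1, MIR28, MIR26A1 and MIR33A were above background on no array, and that of MIR188 on 2 of 5. Probes so dim cannot show whether the microRNA gene moved with its host. R3HDM1 rose by 0.39 (limma's adjusted p = 0.0493) with MIR128-1 at 0.02, CLCN5 rose by 0.49 (0.0217) with MIR188 at 0.07, and LPP rose by 0.48 (0.00746) with MIR28 at -0.04. CTDSPL, a phosphatase gene, had a difference of -0.77 (limma's adjusted p = 0.00732) with MIR26A1 at -0.01. SREBF2, the regulator of cholesterol synthesis, had a difference of -0.47 (0.00925) with MIR33A at -0.19. MIR17HG, the host transcript of the miR-17 cluster, is no member by the naming rule; it read 7.22 and 7.42 in control cells and 6.38, 6.31 and 6.58 with SB216763, a difference of -0.89 (SE 0.11, limma's adjusted p = 0.00288). MIR22HG differed by -0.05. The call of R3HDM1 was lost with centring (adjusted p = 0.0737), with all probes tested singly (0.110) and without SB216763 replicate 1 (0.174) or 3 (0.119), and that of CLCN5 with all probes tested singly (0.0639) and without SB216763 replicate 1 (0.0881) or 3 (0.0559). MIR17HG was not called without control replicate 1 (0.0745) or 2 (0.0839).

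**Figure D4:**
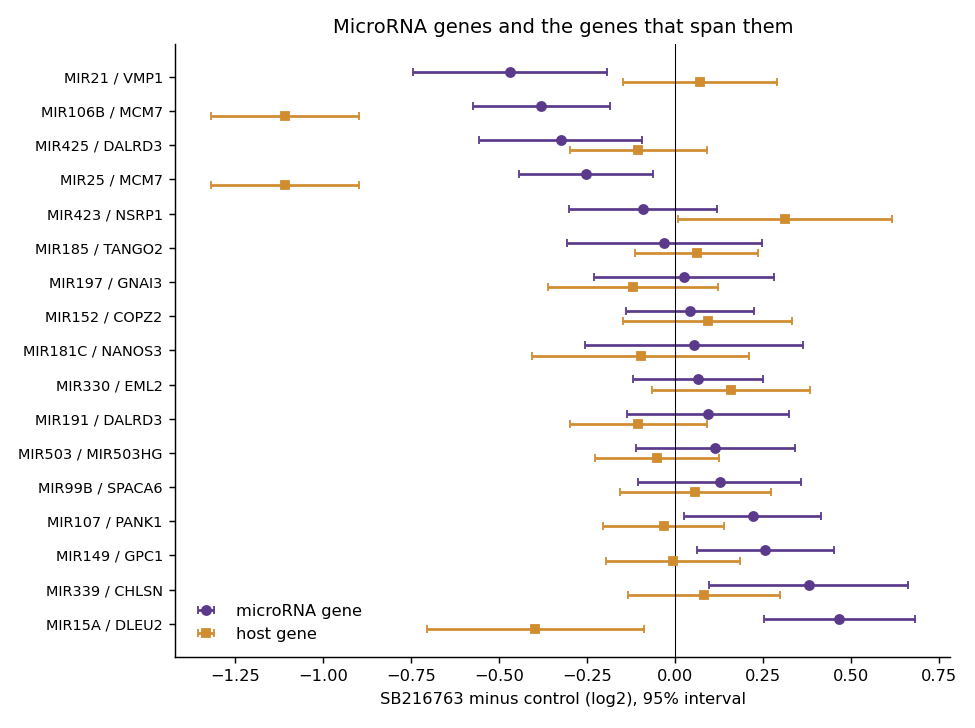
SB216763 minus control difference (log2, horizontal axis, bars are 95% intervals) of the 17 pairs in which microRNA gene (purple circles) and host gene (orange squares) were both above background on all arrays. MCM7 lies far below MIR106B and MIR25, and DLEU2 and MIR15A lie on opposite sides of 0.

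Probe values moved with the base composition of the hairpin. Over the 155 members with a RefSeq hairpin, the GC content of the hairpin and the mean log2 value correlated with a Pearson r of 0.71, a description across genes on the same 5 arrays. Median GC content was 59.9% for the 42 of them above background on all arrays and 46.3% for the 105 above it on none. The SB216763 minus control difference, in contrast, correlated with GC content at 0.08. The 11 called genes had a median GC content of 47.3%. Levels of different probes are not read here as amounts of transcript.

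**Figure D5:**
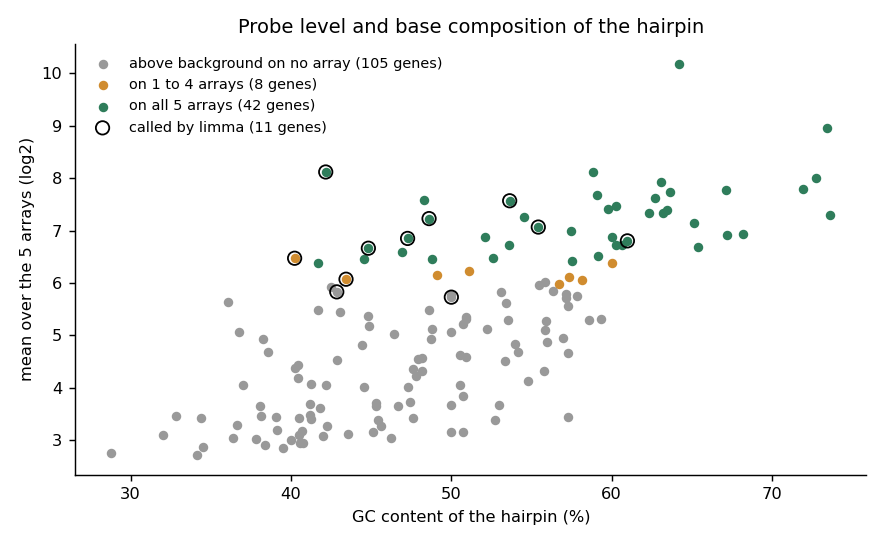
GC content of the RefSeq hairpin (percent, horizontal axis) and mean log2 value over the 5 arrays (vertical axis) of 155 microRNA genes; colours give the number of arrays above background and rings mark the 11 called genes. Probe values are higher at higher GC content, r = 0.71, and the ringed genes have a median GC content of 47.3%.

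One treated array stood apart for the bright microRNA genes. Of the 45 above background on all arrays, 51.1% were highest on SB216763 replicate 2, against 21.6% of all genes of that kind. Among the 38 of these 45 that were not called, it was the highest array for 23. The difference of this array from the mean of the other 2 treated arrays correlated with hairpin GC content at 0.38 over 155 members. Its part in the differences was not tested. Without it there were 13 calls, or 7.51%, 2 higher and 11 lower. Of all genes 15.5% were then called, 1680 higher and 1179 lower, against 13.1% with all 5 arrays. MIR134, MIR138-2, MIR195 and MIR182 were added and MIR148B and MIR181A2 lost. Of the added genes, MIR138-2, MIR195 and MIR182 were above background on no array.

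The machinery that makes and uses microRNAs was nearly all well above background, with 30 of 32 measured genes on all 5 arrays. Of the 32, 4 were called, or 12.5%, beside 13.1% of all genes and 18.2% of those above background on all arrays. TNRC6C, a partner of Argonaute in silencing, rose by 0.40 (limma's adjusted p = 0.0230), and SND1, a nuclease associated with the silencing complex, rose by 0.38 (0.0294). GEMIN4, found in complexes with Argonaute, had a difference of -0.62 (limma's adjusted p = 0.00441) and DGCR8, the partner of Drosha, had one of -0.29 (0.0449). DROSHA itself differed by 0.17, XPO5 by -0.25, DICER1 by -0.07 and AGO2 by 0.41 (limma's adjusted p = 0.0652), none called. The median difference of the list was 0.09, beside 0.00 over all genes. Without either control array all 4 calls were lost, and TNRC6C, SND1 and DGCR8 also lost theirs without SB216763 replicate 1 (adjusted p = 0.105, 0.116 and 0.176) or 3 (0.0644, 0.0697 and 0.0905) and with all probes tested singly (0.0607, 0.0724 and 0.0861). DGCR8 lost it without SB216763 replicate 2 too (0.0518).

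Textbook targets of the microRNAs above were measured on the same arrays. Over all genes tested 7.21% were called higher and 5.92% lower, as given above. Of 8 targets of miR-221 and miR-222, limma called 1 higher, the stress gene DDIT4 (log2 difference 0.66), and 3 lower: FOS (-1.28), the metalloproteinase inhibitor TIMP3 (-0.84) and CDKN1B, which encodes p27 (-0.51). CDKN1B read 9.80 and 9.71 in control cells and 9.28, 9.11 and 9.36 with SB216763, so it and MIR221 were both lower. KIT differed by -0.10 and was not called. Of 9 targets of miR-15/16, 6 were called lower and 0 higher: CDC25A (-1.10), WEE1 (-0.65), CCNE1 (-0.57), CHEK1 (-0.51), CCND3 (-0.42) and BCL2 (-0.39), with a list median of -0.42. Of 9 let-7 targets 3 were called lower, CDC25A, MYC (-1.05) and IGF2BP1 (-0.30), with a median of -0.19. Of 10 miR-17 cluster targets 2 were called lower, BCL2L11 (-0.50) and E2F2 (-0.67), with a median of -0.15. Many of these targets are genes of cell division, CDC25A counts in 2 lists, and mature microRNAs were not measured, so the lists are given side by side with no test of a link. All of these target calls were lost without either control array. CDKN1B (adjusted p = 0.0576), WEE1 (0.0569), CHEK1 (0.0543), CCND3 (0.0519), BCL2 (0.0753) and IGF2BP1 (0.112) also lost theirs without SB216763 replicate 1, BCL2 (0.0534) and IGF2BP1 (0.116) without SB216763 replicate 3, and IGF2BP1 (0.0591) without SB216763 replicate 2. With all probes tested singly BCL2 (0.0530), CHEK1 (0.0534) and IGF2BP1 (0.0880) were not called.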

How the data were processed

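The authors deposited 1 table of log2 expression values for 5 arrays, made with Affymetrix Expression Console per the submitters' processing notes; that the values are log2 follows from their range. Console version, summarisation method and genome build: not given in the sources used here. Coordinates were therefore left out. Groups come from the sample titles. Probes were named through the platform annotation, leaving 18417 genes with 1 symbol (brightest probe per gene). limma 3.58.1 in R 4.3.3 (lmFit, eBayes) compared the groups, two-sided, with 4.62 prior degrees of freedom; standard errors and 95% intervals come from its moderated variances. On simulated data the fit was checked first. For a gene that 1 group never showed above background, the fold is a lower bound against background. Clusters are from RefSeq (GRCh38.p14). For them, strand was used where the hairpin table gives it, for 155 of 173 members, and distance alone otherwise. Host genes are RefSeq genes that span a member on its strand, or come from a list of known hosts. No RefSeq host was sought for a member without a strand. The pairs of MIR26A1 with CTDSPL, MIR28 with LPP, MIR199A1 with DNM2 and MIR130B with PPIL2 rest on the list alone. Tables and figures used pandas 2.3.3 and matplotlib 3.10.9.

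Named were all called members and their cluster partners, fixed sets of blood-cell microRNA genes and clusters, the 5 brightest members, the 5 largest uncalled differences in each direction among bright members, their hosts, and up to 4 genes per list by p; DROSHA, DICER1, XPO5, AGO2, KIT, CHEK1, BCL2, called hosts of other members, the HOX-cluster and X-cluster members and marker genes named beside them were chosen after their values were seen. The members and lists were chosen with earlier results of these data known. Alternatives were a filter on dim genes (above background on at least 2 arrays), quantile normalization, centring, the mean over probes of a gene, eBayes with trend and robust settings, the replicate number as a block, all 33297 probes tested singly, and each array left out in turn; leaving out a control array leaves 1, assumed to vary like the SB216763 arrays.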

Additional observations from a re-analysis of the deposited data

How the results depend on the processing

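The count of microRNA genes called higher, 4, was 2 with each array centred on its median, 1 with all 33297 probes tested singly, and 0 to 3 with an array left out. The count called lower, 7, was 12 with centring, 2 with all probes tested singly, and 0 to 11 with an array left out; the causes were not tested. MIR221, MIR223 and MIRLET7F1 kept their calls in all 7 alternatives other than leaving out an array. Among these, the mean over a gene's probes leaves the values of the 173 unchanged, as none has more than 1 probe, so it is no check on them. Filtering dim genes left 52 microRNA genes, 4 higher and 8 lower, or 23.1%, beside 24.0% of all genes kept. Quantile normalization gave 4 and 10, or 8.09%, beside 15.6% of all genes. The variance trend gave 5 and 8, or 7.51%, beside 17.0% of all genes. With the replicate block there were 4 higher and 7 lower, or 6.36%, beside 9.94% of all genes. Of these 11, 8 were shared with the fit without it. MIRLET7D (limma's adjusted p = 0.0403) and MIR15B (0.0457) were among those gained, which put MIRLET7D and MIRLET7F1 of 1 cluster among the calls. The host R3HDM1 (0.105) and the list genes BCL2 (0.058), DGCR8 (0.125), IGF2BP1 (0.161), SND1 (0.0597) and TNRC6C (0.0626) were lost. SB216763 replicate 3 has no control of its number, so the block takes up that array whole. Differences with the block are therefore those without SB216763 replicate 3, and the MIRLET7D gain is not separate from the one found there. The labels do not say whether the replicate numbers pair the samples. Deviations from the group means correlated at r = -0.05 and -0.10 between same-numbered arrays. With 2 control arrays, whose deviations mirror each other, this cannot settle the pairing. No called gene changed sign in any alternative. Only 2 control arrays limit the precision, and dim probes bound what can be seen.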

Other observations

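MIR155, the microRNA gene of activated B cells, shares its probe with its host transcript MIR155HG and so stayed outside the 173. That probe read 7.45 and 7.72 in control cells and 6.56, 5.93 and 6.24 with SB216763, with 4 of 5 arrays above background. Its groups do not overlap, and the log2 difference was -1.34 (SE 0.20), with limma's adjusted p = 0.0246 over all 33297 probes. With an array left out, an alternative chosen after seeing the data, the adjusted p was 0.0394 without SB216763 replicate 2, 0.0653 and 0.0897 without SB216763 replicates 1 and 3, and 0.173 and 0.157 without control replicates 1 and 2. Of the 32 probes that name a microRNA gene and another gene, it was the 1 called lower, 0 were called higher, and 4 were above background on all arrays. In the same fit of all probes, 6.83% of the 18417 genes with 1 symbol were called. The probe of MIR29B2 and MIR29B2CHG differed by -0.51 (limma's adjusted p = 0.218), below background throughout, and that of MIR214 and DNM3OS by 0.41 (0.198).

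Identical values on some of the arrays were more frequent among microRNA genes than among all genes: 38 of 173, 22%, had at least 1 tie over the 5 arrays, against 11.8% of all genes tested. Among genes above background on no array it was 23.7% of microRNA genes and 20.3% of all genes. Among those above it on all arrays it was 20.0% and 7.9%.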
